A study of Homo sapiens with 4 samples.

Results

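The enzymes that make serine and load its carbon onto folate were examined in OMM2.3 cells, a uveal melanoma cell line whose source was a metastasis in the liver, in culture with 10% fetal bovine serum. The set was chosen by gene symbol and held 10 of the 58735 genes in the files: PHGDH, PSAT1 and PSPH of serine synthesis, SHMT2, MTHFD2, MTHFD1L and ALDH1L2 of mitochondrial folate metabolism, SHMT1 and MTHFD1 of the cytosol, and PCK2. There were 4 RNA sequencing libraries, 1 in each group: a control, CCCP alone, DHA alone, and the 2 compounds together. CCCP (carbonyl cyanide m-chlorophenyl hydrazone) carries protons across membranes and collapses the mitochondrial membrane potential. The labels do not say what DHA stands for, and the sources used here give no dose, time or vehicle. With 1 library in a group there was no spread between replicates, and every interval below covers counting error only.

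Serine synthesis branches off glycolysis at 3-phosphoglycerate. PHGDH oxidises that intermediate, PSAT1 transfers an amino group to it from glutamate, and PSPH removes the phosphate to give serine. SHMT2 in mitochondria and SHMT1 in the cytosol split serine into glycine and a carbon unit carried by tetrahydrofolate. In mitochondria, MTHFD2 and MTHFD1L take that unit on to formate and ALDH1L2 can burn it to carbon dioxide. In the cytosol the single protein MTHFD1 joins the corresponding activities and turns formate back into units for purines and thymidylate. PCK2 makes phosphoenolpyruvate from oxaloacetate in mitochondria, which can feed 3-phosphoglycerate from below. Several of these genes are known targets of ATF4, the transcription factor of the integrated stress response.

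Recovered reads summed over genes lay between 16900411 and 18937286 per library. Levels are FPKM (fragments per exon length and a divisor for each library) as deposited, and "level" below means FPKM. The divisor was not the recovered read total. It was above that total in control and the combination, and below it with CCCP alone and DHA alone. Median-of-ratios scaling factors of the deposited levels were 0.999, 0.996, 1.01 and 1.01 in control, CCCP, DHA and the combination. The sources used here do not say how the divisor was set. Of 8 melanocyte lineage markers, 3 (MITF, PMEL and GPNMB) reached 1 FPKM and TYR had 0 reads, so the lineage is only partly visible in this line. The 8 together had 45.5 FPKM in control and 29.8 in the combination. Leukocyte markers (0 of 5) and endothelial markers (0 of 4) stayed under 1 FPKM. Of 5 fibroblast markers, COL1A1 and PDGFRB passed it and LUM had 0 reads. Their sum was 17, 12.4, 7.82 and 4.43 FPKM in control, CCCP, DHA and the combination, and its part in the results was not tested. In bulk RNA, fewer cells that express a gene and less RNA per cell cannot be told apart.

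Of the 10 genes, 9 had at least 1 FPKM in every library. ALDH1L2 stayed under 1 FPKM in all 4, and so is in none of the counts below. The order of levels in control was SHMT2 at 25.8 FPKM, PSAT1 at 22.7, MTHFD2 at 15.4, MTHFD1 at 14.1, MTHFD1L at 11.3, PHGDH at 8.46, SHMT1 at 8.32, PCK2 at 4.53, PSPH at 4.06 and ALDH1L2 at 0.115. The neighbours PHGDH and SHMT1, and PCK2 and PSPH, had overlapping counting intervals in control. This order depends on the gene length, because the deposited values were divided by the summed length of all annotated exons. That length is 9217 bases for PHGDH and 9377 for MTHFD1, against principal transcripts of 2585 and 3136 bases. Per length of the principal transcript, MTHFD1 was number 2 in control at 42 FPKM and PHGDH number 3 at 30.2 FPKM. Ratios of 1 gene between libraries do not depend on the length.

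**Figure D1:**
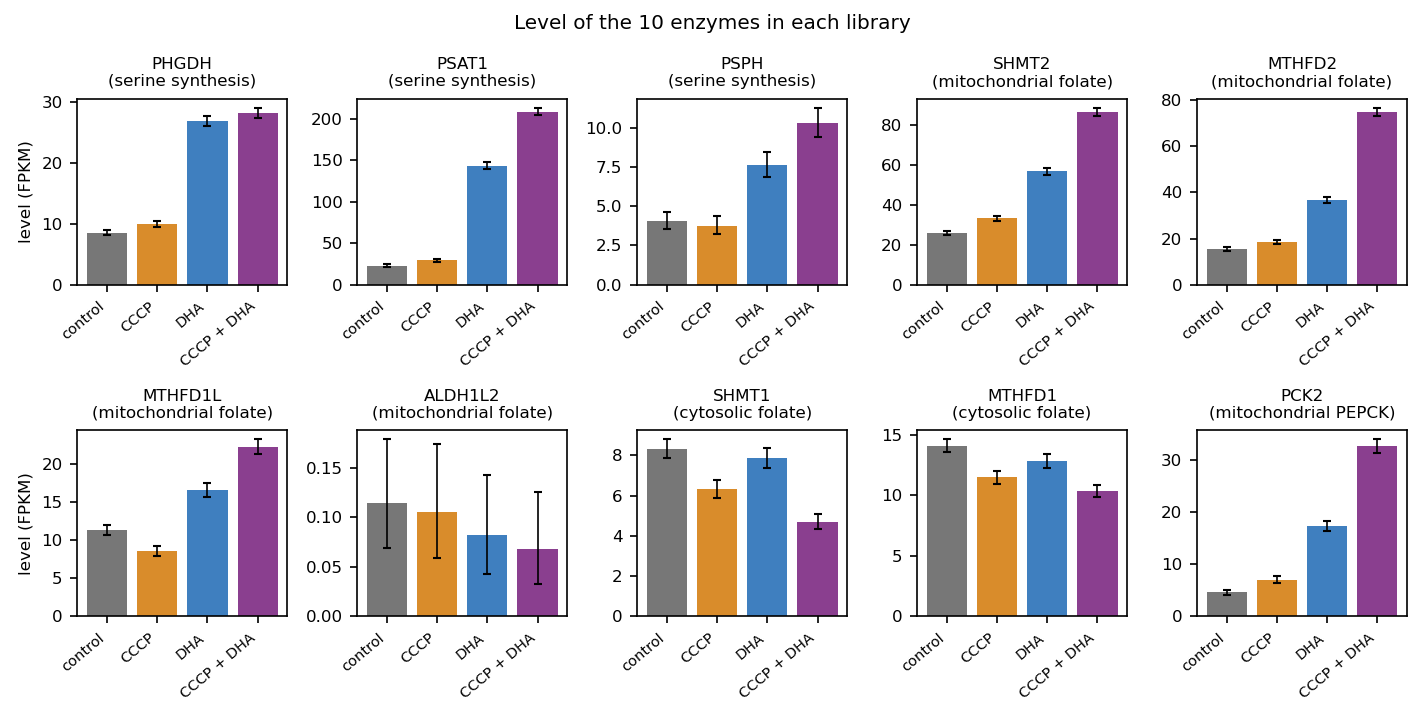
Level (FPKM) of each of the 10 enzymes in the 4 libraries, 1 bar per library, with exact Poisson 95% intervals that cover counting error. PSAT1 goes from 22.7 FPKM in control to 209 with both compounds, whereas SHMT1 goes from 8.32 to 4.69.

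Sequence before the start site was read for the 7 enzymes found in the RefSeq promoter table (GRCh38.p14), 250 bases before to 50 after each start. The core of the C/EBP-ATF response element, TGATGNAA on either strand, stood in 1 of the 7, MTHFD1L, against 3.62% of 35116 promoters. At MTHFD1L the 9 bases read TGATGCAAT, which 0.236% of promoters hold on either strand. They are at 129 bases before the start at 150866486, 90 before that at 150866447 and 25 bases past another start at 150866333. MTHFD1L has 4 start entries and each of the other enzymes 1, whereas the percentages here count single promoter entries. PHGDH, PSAT1, MTHFD2 and PCK2 held no match in this window. The CCAAT box, CCAAT on either strand, was in all 7, cytosolic enzymes included, against 34.6% of promoters. The E-box CACGTG was in MTHFD1 and MTHFD1L, against 7.26%.

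The stretches are shown because PSAT1 holds 3 CCAAT boxes within 130 bases, the others hold the matches named above, and SHMT1 is the cytosolic contrast. Capitals mark CCAAT boxes and, at MTHFD1L, the response element core. PSAT1 is at chr9:78296995-78297124 on the plus strand, PHGDH at chr1:119711851-119711880 (plus), MTHFD2 at chr2:74198529-74198558 (plus), MTHFD1L at chr6:150866346-150866375 (plus) and SHMT1 at chr17:18363571-18363670 (minus), each written 5′ to 3′.
PSAT1: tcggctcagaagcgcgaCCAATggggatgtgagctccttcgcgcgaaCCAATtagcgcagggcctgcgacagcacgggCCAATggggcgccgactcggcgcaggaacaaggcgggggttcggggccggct
PHGDH: gagtatttccgtCCAATcaaaaggagactg
MTHFD2: atgcggcagggaCCAATgggtggcggaggg
MTHFD1L: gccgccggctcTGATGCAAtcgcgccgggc
SHMT1: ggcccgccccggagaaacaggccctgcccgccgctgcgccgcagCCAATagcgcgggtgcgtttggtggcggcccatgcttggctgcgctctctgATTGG
The matches are letters in a window and say nothing of binding, which these data did not measure.

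Among the serine synthesis genes, PSAT1 and PHGDH were several-fold higher in both libraries that received DHA, and PSPH less so. PSAT1 (ENSG00000135069, chromosome 9, 78297143 to 78330093 on GRCh38) was measured at 22.7 FPKM in control, 29.3 with CCCP alone, 144 with DHA alone and 209 with both. Both DHA libraries stood far above the other pair. The combination was 9.19-fold (8.59 to 9.83) above control, 7.13-fold (6.69 to 7.61) above CCCP alone and 1.46-fold (1.41 to 1.51) above DHA alone. PSAT1 had the highest ratio to control of the 9 measured genes in both DHA libraries.

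PHGDH, the entry enzyme (ENSG00000092621, chromosome 1, 119648411 to 119744226), was at 8.46 FPKM in control, 9.98 with CCCP alone, 26.9 with DHA alone and 28.2 with both. Its level was almost the same in the 2 DHA libraries, 1.05-fold (1.005 to 1.09) apart. CCCP alone gave 1.18-fold (1.1 to 1.27) of control, and DHA alone 3.18-fold (2.99 to 3.37). The small ratios depended on scaling, which the intervals do not cover. After rescaling to equal FPKM totals the log2 ratio of CCCP to control went from 0.23 to 0.12. That of the combination to DHA went from 0.066 to 0.13.

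PSPH, the last step (ENSG00000146733, chromosome 7, 56011051 to 56051604), had 4.06, 3.75, 7.61 and 10.3 FPKM in control, CCCP, DHA and the combination. It rested on fewer reads than PHGDH and PSAT1, 218 in control and 492 with both. Its ratio to control was 1.88-fold (1.58 to 2.23) with DHA, just under the 2-fold rule, and 2.55-fold (2.17 to 3.0) with both. With CCCP alone the interval of its ratio included 1. The 3 genes together summed to 35.2 FPKM in control, 43 with CCCP alone, 178 with DHA alone and 247 with both. In deposited FPKM, most of that sum was PSAT1. Per length of the principal transcript, PHGDH stood above PSAT1 in control (30.2 against 22.7 FPKM) and with CCCP alone (35.6 against 29.3 FPKM). PSAT1 stood above PHGDH with DHA alone (144 against 95.8 FPKM) and with both (209 against 100 FPKM).

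No pseudogene copy of PSAT1 or PSPH had any read in the 4 libraries, by the names in the files, although the sources used here do not say how shared reads were assigned. The exons of PHGDH, PSAT1, PSPH, MTHFD1L and PCK2 overlap no exon of another gene in GENCODE 29. Of the cytosolic enzymes, SHMT1 shares 3.69% of its exon length with genes of up to 6.49 FPKM. MTHFD1 shares 11% with genes of up to 2.61 FPKM. SHMT2 shares 9.51% and ALDH1L2 1.7%, with genes of up to 0.0827 and 0.828 FPKM.

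Of the mitochondrial folate genes, SHMT2, MTHFD2 and MTHFD1L were highest with both compounds. MTHFD1L had its lowest level with CCCP alone, and ALDH1L2 was barely detected. SHMT2 (ENSG00000182199, chromosome 12, 57229327 to 57234935) had 25.8 FPKM in control, 33.2 with CCCP alone, 56.6 with DHA alone and 86.4 with both. The combination was 3.34-fold (3.19 to 3.5) above control and 1.53-fold (1.47 to 1.58) above DHA alone.

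MTHFD2 (ENSG00000065911, chromosome 2, 74198562 to 74217565) was at 15.4 FPKM in control, 18.4 with CCCP alone, 36.7 with DHA alone and 75 with both. It was the single measured gene of the set at least 2-fold higher in the combination than with DHA alone, at 2.04-fold (1.96 to 2.13). That ratio lies just inside the rule, and PCK2 at 1.89-fold lies just outside it. Of the exon length of MTHFD2, 33.2% is shared with other genes, chiefly SLC4A5, and strand is not marked by the library kit in the protocol. The overlapping genes reached at most 0.123 FPKM in any library. How reads in the shared part were assigned is not known, so that value cannot show whether the MTHFD2 level is understated.

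MTHFD1L (ENSG00000120254, chromosome 6, 150865549 to 151101887), which releases formate, had 11.3 FPKM in control, 8.52 with CCCP alone, 16.6 with DHA alone and 22.3 with both. CCCP alone was 1.33-fold (1.21 to 1.46) lower than control, whereas the combination was 1.34-fold (1.25 to 1.44) higher than DHA alone. MTHFD1L is the gene with the response element core printed above, and any part of that element in these values was not tested. Its ratio of combination to control, 1.97-fold (1.83 to 2.12), was just short of the 2-fold rule.

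ALDH1L2 (ENSG00000136010, chromosome 12, 105019784 to 105084577) was represented by 19 reads in control, 15 with CCCP alone, 12 with DHA alone and 10 with both. The levels were 0.115, 0.106, 0.0819 and 0.0681 FPKM, and all 5 intervals of its ratios included 1. A difference was not detectable at this depth. By contrast, the lowest count of the other 3 mitochondrial genes was 715 reads.

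Both cytosolic enzymes lay lower than control in all 3 treated libraries, by less than 2-fold. SHMT1 (ENSG00000176974, chromosome 17, 18327860 to 18363563) had 8.32 FPKM in control, 6.32 with CCCP alone, 7.85 with DHA alone and 4.69 with both. The interval of its ratio to control included 1 with DHA, and with both compounds it was 1.77-fold (1.61 to 1.96) lower. MTHFD1 (ENSG00000100714, chromosome 14, 64388031 to 64463457) had 14.1, 11.5, 12.8 and 10.4 FPKM in the same order. It was 1.36-fold (1.28 to 1.44) lower with both, the narrowest range of the 9 measured genes. Of 5 proliferation genes, 4 were at least 2-fold lower in the same combination library, where 5.44% of all genes were, and 1 was above control. With either compound alone 0 were 2-fold lower. MKI67 among them was 3.25-fold (3.08 to 3.42) lower, and the part of proliferation in these values was not tested.

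PCK2 (ENSG00000100889, chromosome 14, 24094053 to 24110598) was measured at 4.53 FPKM in control, 6.97 with CCCP alone, 17.2 with DHA alone and 32.7 with both. It had the largest ratio to control with CCCP of the 9 genes, 1.54-fold (1.34 to 1.77), and with both compounds it was 7.22-fold (6.46 to 8.07) higher. By level it was number 8 of the 10 genes in control and number 4 with both. PCK1, its cytosolic counterpart, was listed at 0 in all 4 libraries.

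**Figure D2:**
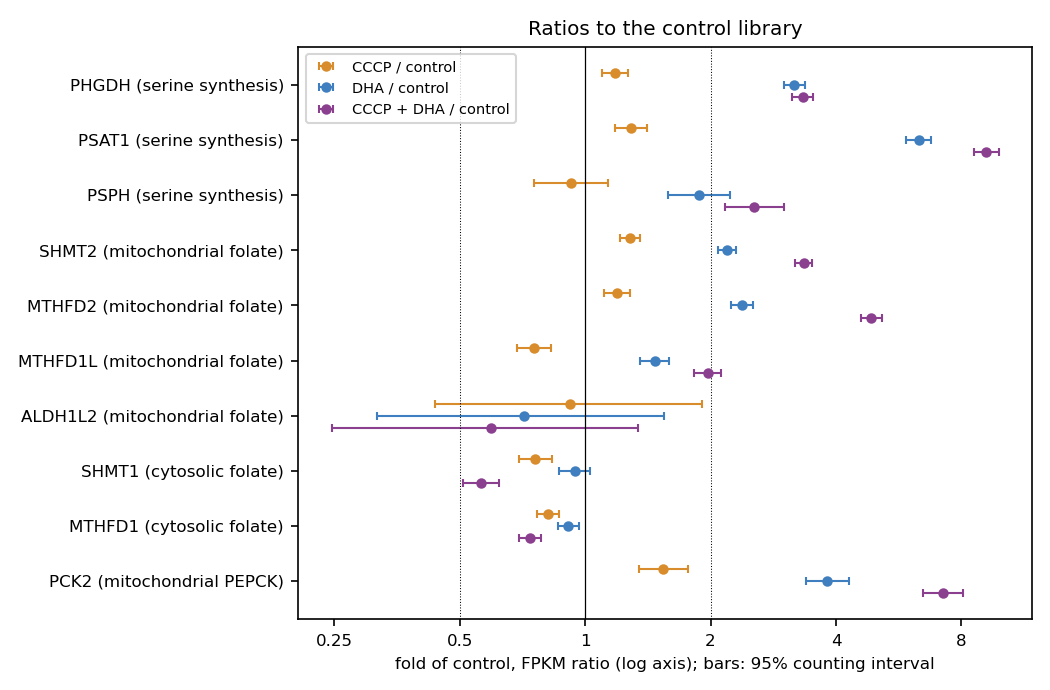
Fold of the control level (log axis) for the 10 enzymes with CCCP, DHA and both, with exact 95% counting intervals and dotted lines at 2-fold. The DHA and combination points of PHGDH, PSAT1, SHMT2, MTHFD2 and PCK2 lie right of 2, and those of SHMT1 and MTHFD1 lie left of 1.

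Counts at the 2-fold rule, on log2(FPKM + 0.5), were read against the same rule over all 13678 genes with at least 1 FPKM in a library. With CCCP alone 0 of 9 were higher, where 3.21% of all genes were, and 0 were lower, where 2.32% were. With DHA alone 5 of 9 were higher (PHGDH, PSAT1, SHMT2, MTHFD2 and PCK2), against 2% of all genes. None was lower, against 1.86%. With both compounds 6 of 9 were higher than control, PSPH being added, against 4.52%, and 0 lower, against 5.44%. Relative to CCCP alone, the combination was higher for 7 of 9, all but the 2 cytosolic enzymes, against 3.46%, and lower for 0, against 4.94%. Relative to DHA alone it was higher for 1 of 9, against 3.27%, and lower for 0, against 3.63%. The median log2 ratio to control over the 9 genes was 0.23 with CCCP alone, 1.12 with DHA alone and 1.68 with both. Over all genes tested it was 0, 0 and 0.0087. That all-gene median depends on scaling, and was -0.094, -0.085 and -0.011 after rescaling to equal FPKM totals. A value near 0 therefore does not show that most genes were unchanged. The comparisons with control share the 1 control library.

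The 2 factors were tested in an additive limma-trend fit over the 4 libraries, in which the departure from additivity, with 1 residual degree of freedom, serves as the error, moderated over all genes. In the DHA factor, 3 of 9 enzymes rose at a Benjamini-Hochberg adjusted p of 0.05, against 0.095% of all genes (13 of 13678), and 0 fell, against 0.00731%. PSAT1 rose by a log2 of 2.72 (SE 0.16, adjusted p 0.0285), PCK2 by 1.98 (SE 0.15, adjusted p 0.0323) and PHGDH by 1.53 (SE 0.14, adjusted p 0.0365). Each was higher in both DHA libraries than in its partner without DHA. SHMT2 (log2 1.24, adjusted p 0.0907), MTHFD2 (log2 1.61, adjusted p 0.105), PSPH (log2 1.09, adjusted p 0.146) and MTHFD1L (log2 0.93, adjusted p 0.257) did not pass, nor did SHMT1 and MTHFD1 (adjusted p 0.552 and 0.715). Without the trend in limma's variance none of the 9 passed, PSAT1 having an adjusted p of 0.413. With voom on recovered reads 7 of 9 did, all upward, but there 232 of 13678 genes rose and 301 fell.

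In the CCCP factor 0 of 9 passed, where 0.0366% of all genes rose and 0.0585% fell. At an unadjusted p of 0.05, 5 of 9 did (PSAT1, SHMT2, MTHFD2, PCK2 and, downward, SHMT1), against 14.5% of all genes. The smallest adjusted p was that of PCK2, with a log2 of 0.74 (SE 0.15, adjusted p 0.128). With voom on recovered reads 3 passed, where 297 of 13678 genes rose and 388 fell. Without the trend 0 passed, of the enzymes and of all genes.

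The balance between mitochondrial and cytosolic enzymes lay further towards mitochondria in each treated library than in control. SHMT2 made up 75.6% (74.3 to 76.9) of the summed SHMT1 and SHMT2 level in control, 84% (82.9 to 85.1) with CCCP, 87.8% (87.1 to 88.5) with DHA and 94.9% (94.4 to 95.3) with both. None of the 4 intervals overlapped. The ratio of SHMT2 to SHMT1 was 3.11 in control, 5.25 with CCCP alone, 7.2 with DHA alone and 18.4 with both. MTHFD2 over MTHFD1 gave 1.1, 1.6, 2.87 and 7.24 in the same order. MTHFD1L over MTHFD1 was the exception with CCCP, at 0.743 against 0.80 in control, and was 1.3 with DHA and 2.15 with both. The size of these ratios depends on the gene length, but their order over the libraries does not. Per length of the principal transcript, MTHFD1 had 42, 34.3, 38.3 and 31 FPKM in control, CCCP, DHA and the combination. MTHFD2 had 16.8, 20.1, 40.1 and 81.9 FPKM, and MTHFD1L 15.7, 11.9, 23.1 and 31 FPKM.

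Summed, the 4 mitochondrial folate enzymes had 52.7 FPKM in control, 60.2 with CCCP alone, 110 with DHA alone and 184 with both. The 2 cytosolic ones had 22.4, 17.8, 20.7 and 15 FPKM. With CCCP the mitochondrial sum was slightly higher and the cytosolic sum lower, whereas with DHA it was chiefly the mitochondrial sum that differed. The mitochondrial share of the 6 enzymes was 70.2, 77.2, 84.2 and 92.4% in control, CCCP, DHA and the combination. Per length of the principal transcript it was 55.2, 64.3, 73.6 and 86.1%, lower throughout and in the same order.

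**Figure D3:**
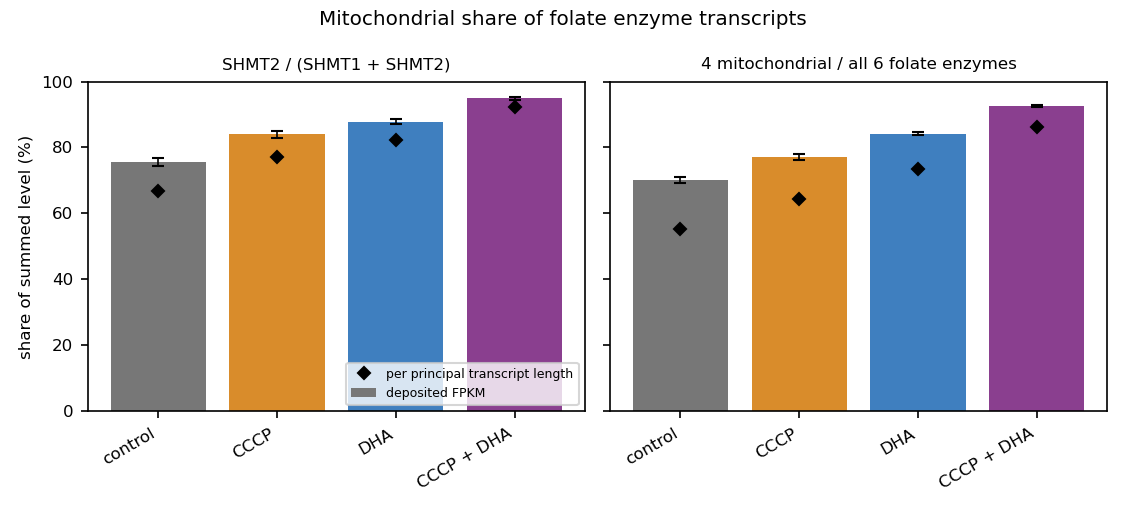
Share (%) of the summed level held by SHMT2 in the SHMT pair (left) and by the 4 mitochondrial of 6 folate enzymes (right) in each library; bars are deposited FPKM with 95% counting intervals, diamonds use the principal transcript length. The SHMT2 share is 75.6% in control and 94.9% with both compounds.

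The combination was next compared with the product of the 2 single ratios, that is, the level expected if each compound multiplied expression by its own factor. MTHFD1L and MTHFD2 exceeded it most. For MTHFD2 the product was 43.7 FPKM and the measured level 75 FPKM, 1.72-fold (1.58 to 1.87) above. For MTHFD1L it was 12.5 against 22.3 FPKM, 1.78-fold (1.58 to 2.0) above. PSPH (1.47-fold, 1.15 to 1.87), PCK2 (1.23-fold, 1.06 to 1.43), SHMT2 (1.19-fold, 1.11 to 1.27) and PSAT1 (1.13-fold, 1.03 to 1.24) lay above by less. SHMT1 was at 0.786 (0.685 to 0.901) of the product, MTHFD1 at 0.991 (0.907 to 1.08) and PHGDH at 0.888 (0.818 to 0.965). The direction for PHGDH and MTHFD1 turned with scaling: on the log2 scale PHGDH departed by -0.16 in the deposited values and by 0.015 after rescaling to equal FPKM totals, and MTHFD1 by -0.011 and 0.16. None of the 9 departed by 1 or more on the log2 scale, where 3.77% of all genes did upwards and 4.42% downwards. The departure has no residual degree of freedom and was not tested.

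**Figure D4:**
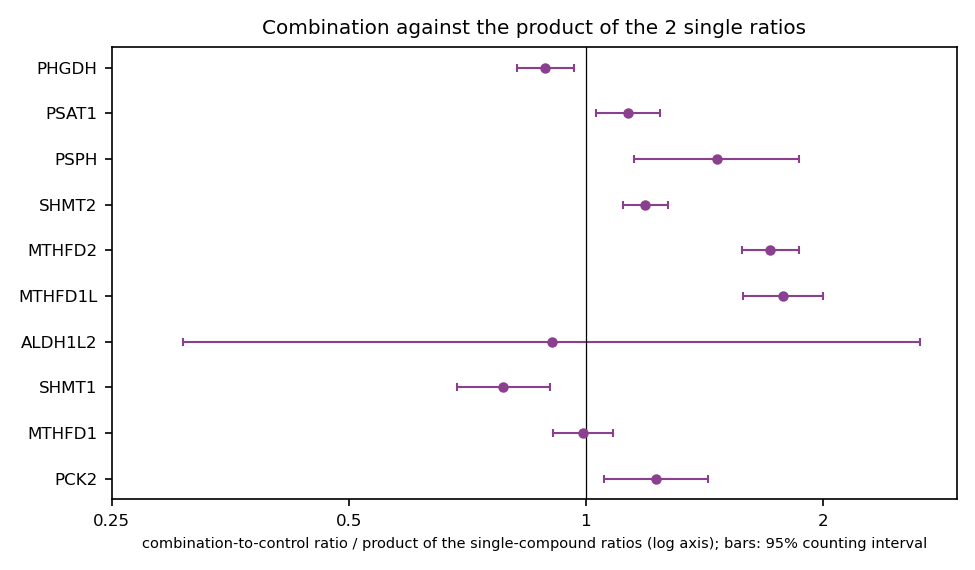
Ratio of the combination to control divided by the product of the single-compound ratios (log axis), with 95% counting intervals from the reads of the 4 libraries. MTHFD2 and MTHFD1L lie near 1.72 and 1.78, and SHMT1 at 0.786. PHGDH at 0.888 and MTHFD1 at 0.991 turn to above 1 after rescaling to equal FPKM totals, and ALDH1L2 has too few reads to place.

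Other genes around the pathway were counted by the same 2-fold rule and are to be read against the shares of all genes given above. Of 17 other genes of the folate cycle and folate transport, 11 were measured. None of them was at least 2-fold higher with DHA or with both compounds, against 2% and 4.52% of all genes. TYMS, which makes thymidylate, was 2.5-fold (2.22 to 2.83) lower with both, at 8.47 against 21.2 FPKM. Of 9 genes that break down glycine or serine, 5 were measured and 0 were 2-fold different with either DHA library. Among 6 purine synthesis genes, 5 were measured and 0 were 2-fold different from control in any treated library.

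Among transport and sulfur genes, SLC1A4 and CTH were past the 2-fold rule. SLC1A4, a neutral amino acid transporter that carries serine, had 0.963 FPKM in control, 1.09 with CCCP alone, 3.76 with DHA alone and 4.76 with both, 4.94-fold (4.08 to 6.03) higher in the last. It was the only one of 7 measured serine and glycine transporters at least 2-fold higher than control with DHA or both. SLC1A4 was under 1 FPKM in control and passed the level filter only through treated libraries. Of the 6 transporters with at least 1 FPKM in control, 0 were 2-fold higher with DHA or with both. SLC1A5, a glutamine and serine transporter, was 1.87-fold (1.76 to 1.99) higher with both, and 3 of the 7 were above control by any amount. CTH, which makes cysteine from cystathionine, had 1.17, 2.23, 5.58 and 17.7 FPKM, and was the only one of 6 measured methionine cycle and transsulfuration genes past 2-fold with both.

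Glycolysis genes next to the branch point were lower. All 5 measured were lower than control with both compounds, 4 of them at least 2-fold, against 5.44% of all genes, with a median log2 ratio of -1.04. PGK1, which makes 3-phosphoglycerate, had 210 FPKM in control, 102 with CCCP alone, 182 with DHA alone and 64.6 with both. PGAM1, which draws it onward, had 295, 163, 217 and 91.6 FPKM. The serine enzymes and these 2 neighbours were thus measured in opposite directions in the combination library.

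ATF4 itself had 104 FPKM in control, 129 with CCCP alone, 229 with DHA alone and 342 with both. The list of ATF4 and its other targets was chosen with earlier results of these data known, so its counts are not independent of them. All 14 genes of the list were measured, but CHAC1, ASNS and ATF3 passed the level filter only through treated libraries. Among the other 11, 8 were at least 2-fold higher with DHA, against 2% of all genes, and 8 with both, against 4.52%. Their median log2 ratios were 1.14 and 2.24. VLDLR, ATF5 and CEBPB were the 3 that were not, with CEBPB at 0.93 with both. Of these 11, SLC7A5, SLC7A11, SLC3A2 and NUPR1 rose in the DHA factor of the limma fit (adjusted p 0.0365 to 0.0385), where 0.095% of all genes rose. ATF4 itself did not pass in that fit (log2 1.27, adjusted p 0.138). Nor did TRIB3, DDIT3, SESN2, CEBPB, VLDLR and ATF5 (adjusted p 0.126 to 0.742). Without the trend in limma 0 genes passed.

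**Figure D5:**
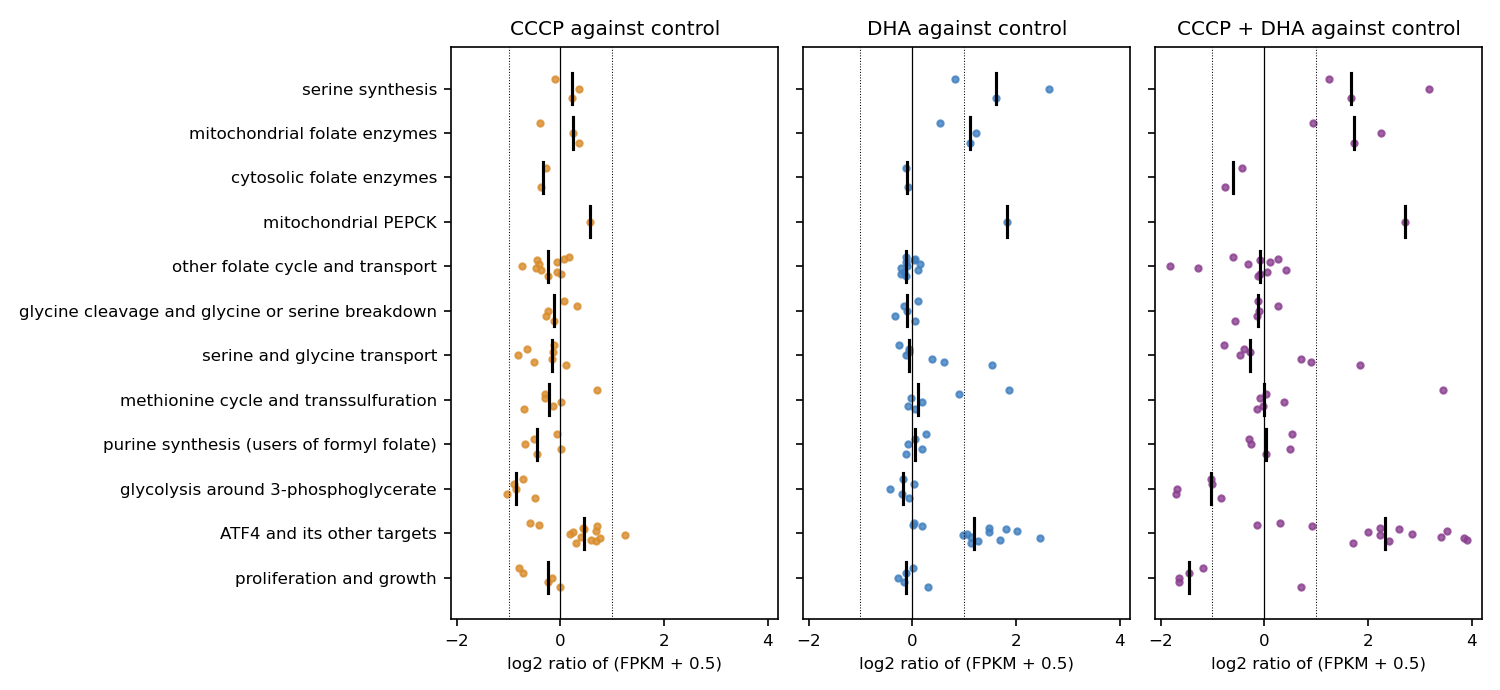
Log2 ratio of (FPKM + 0.5) to control for measured list genes (points) and list medians (bars), by treatment, with dotted lines at 2-fold. The lists were chosen with earlier results of these data known. With both compounds the ATF4 list has a median of 2.32 over all 14 genes (2.24 over the 11 that pass in control) and the glycolysis genes one of -1.04, while other folate genes centre on -0.09.

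The genes most like PHGDH, PSAT1 and MTHFD2 were sought among 6759 others with a mean of at least 5 FPKM, by Euclidean distance over the 3 log2 ratios to control. Nearest to PHGDH were NUPR1 at a distance of 0.35, ATF4 at 0.49, MARS at 0.49, SHMT2 at 0.51 and SARS at 0.55. Nearest to MTHFD2 were GARS at 0.17, AARS at 0.21, WARS at 0.24, CEBPG at 0.25 and SLC3A2 at 0.32. GARS, AARS, WARS, MARS and SARS encode transfer RNA synthetases. PSAT1 had no close match, its nearest genes being SLC7A11 at 0.79, CTH at 0.89, PCK2 at 0.95, SLC7A5 at 1.01 and TRIB3 at 1.22.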

How the data were processed

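RNA from 4 OMM2.3 cultures, 1 library each, (1 ug each) went into Illumina TruSeq RNA libraries, per the labels' protocols. The authors deposited FPKM per gene, per the file headers; the aligner, counter and build were not given in the sources used here. Every identifier (58735) matched GENCODE 29 (GRCh38). FPKM times summed exon length came to whole reads for 100% of values above 0 in every library (tolerance 0.01 reads), which gave counts for depth and intervals. Ratios used log2(FPKM + 0.5) for calls and FPKM without pseudocount for folds, with 95% intervals by the exact conditional binomial (Clopper-Pearson); intervals of the departure and of the 6-enzyme share used the delta method. Filter: at least 1 FPKM in at least 1 library (13678 genes). The additive fit used limma-trend with Benjamini-Hochberg adjustment. It was run on simulated counts with counting error only, which cannot show how it behaves with spread between cultures or departure from additivity.

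Members and lists were chosen with earlier results of these data known. A result of the other folate list is not reported here. Named genes were the 10 enzymes, list genes, and the 5 nearest in pattern to PHGDH, PSAT1 and MTHFD2. Alternatives were pseudocounts 0.1 and 1, filters, 2 rescalings, 1.5-fold and 4-fold in place of 2-fold, voom, limma without trend, and shares from reads or without ALDH1L2; principal transcript length (longest transcript with an APPRIS principal tag) was chosen after seeing the data. Tools were scipy 1.17.1, matplotlib 3.10.9, pandas 2.3.3 and numpy 2.4.6 in Python 3.11.15, and limma 3.58.1 in R 4.3.3.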

Additional observations from a re-analysis of the deposited data

Results flagged for a closer look

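The CCCP ratio had opposite signs without and with DHA for 2 of the enzymes, and the difference was not tested, each ratio resting on 1 library a side. MTHFD1L had a log2 ratio of -0.39 for CCCP against control and 0.41 for the combination against DHA, a difference of 0.80, and the counting interval of each ratio excluded 1. For PSPH the values were -0.10 and 0.42, a difference of 0.52, and the interval of the first included 1.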

How the results depend on the processing

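No paired analysis was possible because each group has 1 library and the labels carry no replicate numbers; for the same reason no library could be left out. Among single-gene alternatives, 342 kept their call or stayed within the counting interval, 19 moved beyond it, 20 newly passed the limma threshold, 3 no longer passed it (PSAT1, PHGDH and PCK2 in the DHA factor, without trend) and no called value reversed. Uncalled values changed sign in 4 cases, each after rescaling to equal FPKM totals: the log2 departures of PHGDH (-0.16 to 0.015), MTHFD1 (-0.011 to 0.16) and ALDH1L2 (-0.013 to 0.017), and the CCCP factor of MTHFD1L (0.014 to -0.0055). The same rescaling moved the log2 ratios of CCCP to control beyond the counting interval for PHGDH (0.23 to 0.12) and SHMT2 (0.35 to 0.24). So it did for MTHFD2 (0.25 to 0.14) and MTHFD1 (-0.28 to -0.39). Counts at 2-fold did not move with pseudocount or rescaling. With the 4-fold rule, 1 of 9 enzymes was higher with DHA, 3 with both compounds, 3 in the combination against CCCP and 0 in it against DHA. With the 1.5-fold rule, 3 were higher and 1 lower in the combination against DHA, and 1 was lower with both against control. Shares of all genes were counted at the 2-fold rule only, so the 1.5-fold and 4-fold counts have no background here. In the limma fit the CCCP factor had 2 enzymes past the threshold without a filter, 1 after rescaling to equal totals and 3 with voom. The counts over all genes were larger too. Of 13678 genes, 192 rose and 327 fell after rescaling, and 297 and 388 with voom, against 5 and 8 in the main fit. Without a filter 474 of 58735 rose and 523 fell. The DHA factor had 7 without a filter, 5 at a mean of at least 5 FPKM, 7 after rescaling to equal totals, 0 without trend and 7 with voom. Of 13678 genes, 179 rose and 231 fell after rescaling, and 232 and 301 with voom, against 13 and 1 in the main fit. At a mean of at least 5 FPKM 30 of 6760 rose and 4 fell. In the unfiltered fit 424 of 58735 rose and 577 fell. Without a filter limma reported most residual variances as exactly 0, so that fit is unreliable; the other causes were not tested. The mitochondrial share of 6 enzymes, in control, CCCP, DHA and both, was 57.3, 65.6, 75.2 and 87.2% in reads and 55.2, 64.3, 73.6 and 86.1% per principal transcript length. The SHMT2 share was 67.4, 77.7, 82.7 and 92.5% in reads and 66.7, 77.2, 82.3 and 92.2% per principal transcript length. The shares differ here by the length divisor alone. Depth limits ALDH1L2, with 10 to 19 reads.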

Other observations

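CBS and CTH, the 2 successive enzymes that pass the sulfur of homocysteine to cysteine with serine as the acceptor, differed in pattern. CBS had 1.48 FPKM in control, 1.11 with CCCP alone, 3.16 with DHA alone and 1.51 with both, on 195, 126, 370 and 177 reads. It was 2.14-fold (1.8 to 2.56) above control with DHA and 1.02-fold (0.83 to 1.26) with both, whereas CTH was 15.1-fold (11.5 to 20.3) above control with both. DMGDH, a mitochondrial enzyme that hands the carbon of dimethylglycine to folate, had 1 read in control, 16 with CCCP alone, 4 with DHA alone and 85 with both. ASNS, the asparagine synthetase, had 5, 30, 64 and 188 reads in the same order, and 44.6% of its exon length is shared with another gene.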
